A study of Mus musculus with 24 samples.

Results

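Phosphorylase kinase and the enzymes that build and break down glycogen were followed in tibialis anterior, a fast muscle of the lower leg, of mice with and without an intact copy of Hira in their muscle fibres. The set was named by 9 platform symbols: PHKA1, PHKA2, PHKB, PHKG1 and PHKG2 for the phosphorylase kinase subunits, PYGM for the muscle glycogen phosphorylase, GYS1 for the muscle glycogen synthase, GBE1 for the branching enzyme and GYG for glycogenin, the primer of the glycogen chain. Every array probe annotated with a symbol of that list was taken, which gave 7 probes of 6 genes, out of 26423 probes and 17742 named genes. Phka2 had 2 probes and each of the other genes had 1. No probe carried the symbol Pygm, Gys1 or Gyg, so 3 of the 9 genes were not analysed here. The set was selected on the difference between the groups below, with the low Phka1 and Phkg1 values of the knockout animals known, so the group differences of these 7 probes are a description, with no test.

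The 8 mice, of strain C57BL6/J;129S1/SvImJ, were 6 weeks old and carried 1 copy of Myf6 cre, a recombinase knocked into a gene of muscle fibres. The 4 control mice were Myf6 cre/+; Hira flox/+, with a floxed and an intact allele. The 4 mice labelled Hira CKO (conditional knockout) were Myf6 cre/+; Hira flox/-, with a floxed and a null allele. Hira encodes a chaperone that places the histone variant H3.3 on DNA. In cells that do not use Myf6 cre the genotypes are unequal as well, since the allele opposite the floxed copy is intact in control and null in Hira CKO. Total RNA of each animal was hybridised on 3 arrays, and the mean of the 3 is the value of the animal. The arrays of an animal repeat 1 RNA, so the 4 animals of each group are the replicates, and their number limits the precision.

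Glycogen is the store of glucose in muscle fibres. Phosphorylase kinase switches on glycogen phosphorylase, which releases glucose from the store when a muscle contracts or adrenaline acts. The enzyme is built of 4 kinds of subunit. The alpha and beta subunits are regulatory and are phosphorylated by protein kinase A, gamma is the catalytic subunit, and delta is calmodulin, which senses calcium. Alpha and gamma each exist as a form that prevails in muscle (Phka1, Phkg1) and a form that prevails in liver and other tissues (Phka2, Phkg2), while beta is shared. In humans, mutations of PHKA1 cause a glycogen storage disease of muscle.

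Signals of muscle fibres were present in both groups. Of 6 fibre markers 5 were measured, and their group means lay between 120465 and 275287 intensity units. Array medians lay between 432 and 434. The Hira probe read 495 ± 48.9 (SD, n = 4) in control and 558 ± 38.9 (SD, n = 4) in Hira CKO, a difference of 0.17 log2 that did not pass in limma (adjusted p = 0.193). Where this probe lies relative to the deleted part is not given in the sources used here, so it does not check the labels. The directions below rest on the labels.

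Start regions of the 3 genes with the largest group differences are shown because all 3 differed the same way. They are RefSeq windows of build GRCm38.p6, 250 bases before to 50 after the start of a transcript, read 5′ to 3′ on the strand of the gene, and capitals mark each CANNTG, the E-box letters that myogenic factors can bind.
Phka1, chrX:102644197-102644496, minus strand: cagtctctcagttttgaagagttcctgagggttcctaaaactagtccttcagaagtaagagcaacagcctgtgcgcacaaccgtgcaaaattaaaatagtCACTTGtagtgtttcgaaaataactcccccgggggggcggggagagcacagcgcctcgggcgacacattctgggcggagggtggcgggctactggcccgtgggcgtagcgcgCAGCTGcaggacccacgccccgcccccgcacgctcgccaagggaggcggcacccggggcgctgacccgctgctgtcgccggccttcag
Phkg1, chr5:129879039-129879338, minus strand: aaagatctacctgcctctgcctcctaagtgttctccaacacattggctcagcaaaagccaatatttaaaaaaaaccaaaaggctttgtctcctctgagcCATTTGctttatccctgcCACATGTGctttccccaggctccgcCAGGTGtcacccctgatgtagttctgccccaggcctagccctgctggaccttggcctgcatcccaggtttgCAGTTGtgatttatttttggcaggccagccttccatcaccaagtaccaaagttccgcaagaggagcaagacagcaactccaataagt
Phkg2, chr7:127573098-127573397, plus strand: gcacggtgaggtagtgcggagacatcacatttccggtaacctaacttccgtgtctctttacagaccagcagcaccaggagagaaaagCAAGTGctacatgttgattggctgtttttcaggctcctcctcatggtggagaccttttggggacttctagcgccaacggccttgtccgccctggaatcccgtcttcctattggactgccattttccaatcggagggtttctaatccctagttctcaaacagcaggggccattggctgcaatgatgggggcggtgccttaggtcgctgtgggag

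The 3 windows were unlike each other in base composition. The Phka1 window was 62.7% G or C with 25 CpG, the Phkg1 window 50% with 2 CpG and the Phkg2 window 53.7% with 11 CpG, against medians of 52.7% and 7 CpG over 32851 RefSeq windows. CANNTG, which reads alike on both strands, occurred 2 times in Phka1, 5 times in Phkg1, with a pair that overlaps, and 1 time in Phkg2. It is found in 72.3% of all windows. GGGCGG, the letters Sp1 can bind, was searched on both strands and occurred 3 times in Phka1, 0 times in Phkg1 and 2 times in Phkg2, and is found in 35.7% of all windows. TATAAA and the MEF2 site, the latter a motif of muscle genes, had no match in the 3 windows on either strand and are found in 13.6% and 3.19% of all windows. The windows of Phka2, Phkb and Gbe1, none of them called lower, had no match to these either. They held 0, 1 and 2 CANNTG and 3, 2 and 1 GGGCGG, and were 64.3%, 73.3% and 54.3% G or C. The part of any of these letters in the group differences was not tested.

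The alpha subunit of muscle had the largest difference of the set. In control animals 1 to 4 the Phka1 probe (PH_mM_0006766) read 3567, 5718, 7560 and 8196 intensity units. In Hira CKO animals 1 to 4 it read 450, 702, 606 and 445. Every Hira CKO animal was far below every control animal, and the groups did not overlap. The means were 6260 ± 2081 (SD, n = 4) in control and 551 ± 125 (SD, n = 4) in Hira CKO, so the knockout animals kept 8.8% of the control level, −3.45 log2 (SE 0.258, 95% interval −4.02 to −2.87). In whole muscle, fewer cells of a type and less RNA per cell cannot be told apart.

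Phka1 was also the member that varied most within a group. The highest control animal read 2.3 times the lowest, and the SD between control animals was 0.55 log2, larger than for 98.5% of all probes, whose median was 0.126. Control animal 1 was the low one, and its 3 arrays ran from 2852 to 4412, below the lowest array of any other control animal, 5211. In Hira CKO the SD between animals was 0.342 log2. Animal 4 of Hira CKO had the widest arrays, from 253 to 547. The spread between arrays of 1 animal was 0.293 log2 for Phka1 against a median of 0.13 over all probes.

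The alpha subunit of liver, Phka2, gave different readings at its probes. At the brighter probe (mMC020311) the control animals read 1378, 905, 932 and 1011 and the Hira CKO animals 983, 986, 1237 and 980. Those groups overlapped, with a difference of −0.003 log2 (SE 0.137, 95% interval −0.31 to 0.30). At the dimmer probe (PH_mM_0012635) the control animals read 119, 147, 159 and 176 and the Hira CKO animals 212, 219, 219 and 188. All these values lie below the array median, and every Hira CKO animal was above every control animal. That difference was 0.47 log2 (SE 0.11, 95% interval 0.23 to 0.72), or 140% of the control mean. Single arrays overlapped at this probe: control animals 2 and 3 had arrays as low as 85.6 and 113 and as high as 181 and 187, and the lowest Hira CKO array read 178. Taking the median of the 3 arrays in place of the mean gave 0.35 log2, which was no longer called (adjusted p at or below 0.05 in the limma fit of all probes). Neither Phka2 probe showed a fall like that of Phka1.

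Both catalytic subunits were lower in Hira CKO. The Phkg1 probe, for the muscle form, read 18046, 24675, 23213 and 21104 in control animals 1 to 4 and 7671, 8064, 7096 and 9150 in Hira CKO animals 1 to 4. The highest Hira CKO animal stood well below the lowest control animal. The means were 21760 ± 2878 (SD, n = 4) and 7995 ± 867 (SD, n = 4), which is 36.7% of control and −1.44 log2 (SE 0.114, 95% interval −1.69 to −1.19).

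The Phkg2 probe, for the form of liver and testis, read 2631, 2888, 2817 and 2444 in control animals and 1278, 1301, 1273 and 1038 in Hira CKO animals. These groups were also apart, with Hira CKO animal 4 the lowest of all. The means were 2695 ± 199 (SD, n = 4) and 1223 ± 124 (SD, n = 4), which is 45.4% of control and −1.14 log2 (SE 0.0936, 95% interval −1.34 to −0.93). The intervals of Phkg1 and Phkg2 overlap. The difference between them was not tested. Phka1, Phkg1, Phkb and the dimmer Phka2 probe have their lowest control value in animal 1, whereas Phkg2 has it in animal 4.

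The beta subunit, shared by the muscle and liver forms of the enzyme, had overlapping values in the groups. The Phkb probe read 18907, 21660, 21614 and 21076 in control and 19064, 19996, 18419 and 22534 in Hira CKO. The highest animal and the lowest animal were both Hira CKO, and the group means differed by −0.06 log2 (SE 0.0843, 95% interval −0.25 to 0.13).

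The branching enzyme Gbe1, which adds side chains to growing glycogen, overlapped too. It read 25631, 19845, 25954 and 23912 in control and 21557, 23735, 26967 and 16143 in Hira CKO. Its lowest and its highest animal both came from the Hira CKO group. On the log2 scale the groups differed by −0.13 (SE 0.153, 95% interval −0.47 to 0.21).

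**Figure D1:**
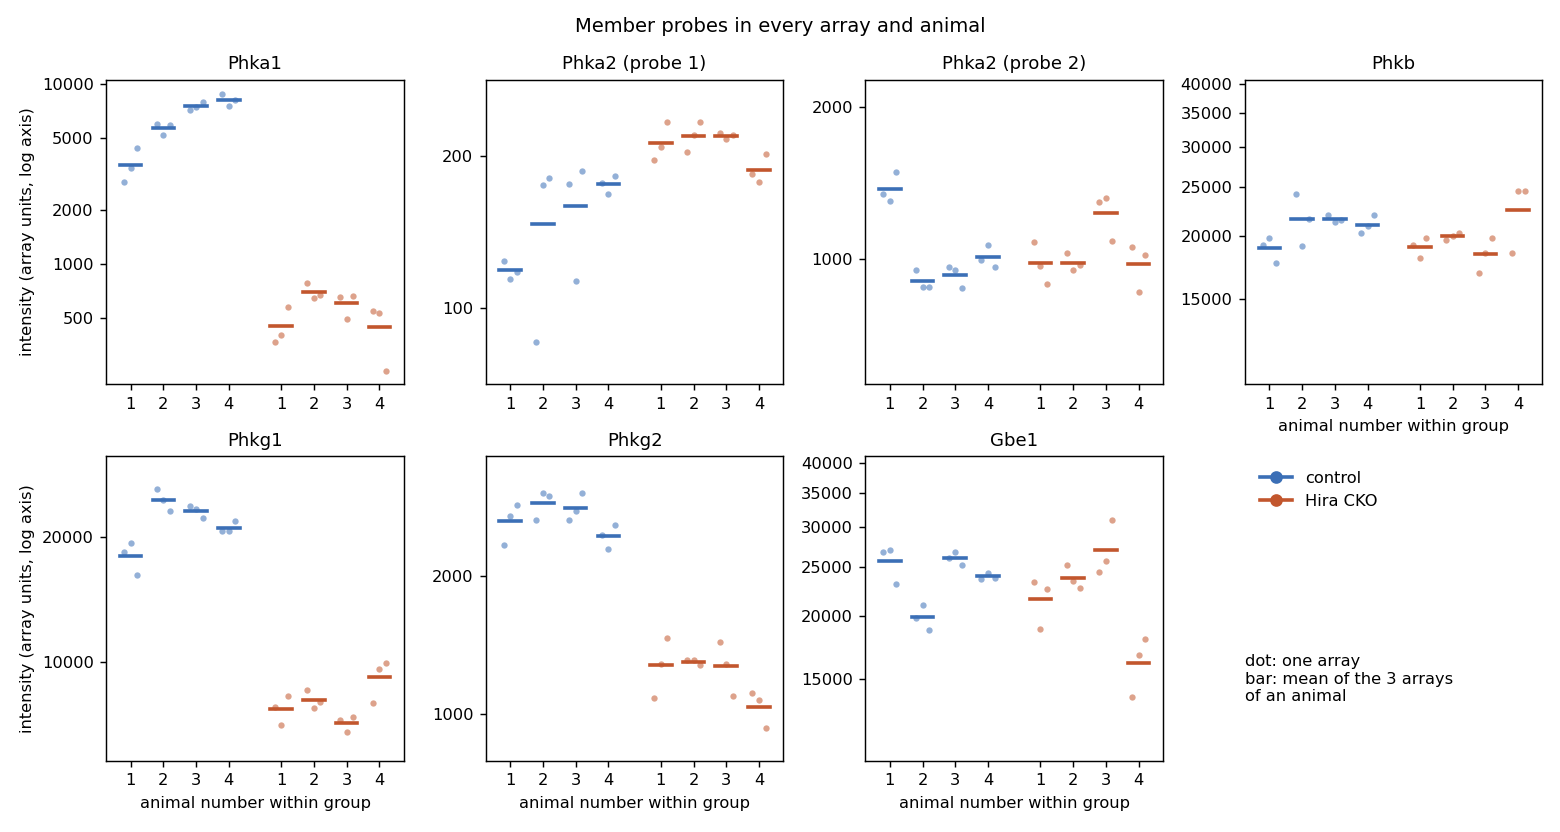
Intensity (log axis) of each member probe by animal number, with 1 dot for each array and a bar for the mean of the 3 arrays of an animal, control in blue and Hira CKO in orange; in Phka2, probe 1 is the dimmer PH_mM_0012635 and probe 2 the brighter mMC020311. The Hira CKO bars lie below every control bar for Phka1, Phkg1 and Phkg2 and above every control bar for Phka2 probe 1, and the bars overlap for Phka2 probe 2, Phkb and Gbe1.

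Of the 7 member probes, 3 were called lower and 1 higher in the limma fit of all probes. Over all 26423 probes, 10% were called lower and 10.5% higher, 20.6% in all. The same 4 member probes did not overlap between the groups, against 24.9% of all probes. Nothing is read from these counts, since the members were chosen with this comparison known. The median difference was −0.13 log2 over the 7 member probes and 0.01 log2 over all probes. With each animal left out in turn, the differences ranged from −3.70 to −3.29 log2 for Phka1, from −1.53 to −1.38 for Phkg1 and from −1.18 to −1.06 for Phkg2.

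The other genes of glycogen use were taken from 3 lists that hold no member. Of 39 listed genes 33 were measured, by 36 probes, of which 6 were called higher and 4 lower, or 27.8% against 20.6% of all probes. Their median difference was −0.04 log2. The 3 lists were chosen with earlier results of these data known, so nothing is read from their share of calls. The calls were in subunits of AMP-activated protein kinase, in phosphatase targeting, in phosphoglucomutase symbols and in a calmodulin gene. All adjusted p-values in the next paragraphs are from limma with Benjamini-Hochberg adjustment over all probes.

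For glycogen synthesis and its phosphatase, 15 of 17 genes were measured by 16 probes, with 2 probes called higher and 2 lower. Pgm2l1, an enzyme that makes glucose bisphosphate, the activator of phosphoglucomutase, rose by 0.68 log2 (SE 0.0814, adjusted p = 0.000428), from 1669 to 2043 across control animals to 2855 to 3159 across Hira CKO animals. Ppp1r3d, which brings protein phosphatase 1 to glycogen, rose by 0.49 log2 (SE 0.069, adjusted p = 0.00111), from 608 to 653 to 834 to 941. For both genes every Hira CKO animal was above every control animal. The probe with the symbol PGM2 fell by 0.57 log2 (SE 0.125, adjusted p = 0.0112), from a mean of 123917 ± 14085 to 84311 ± 14572 (SD, n = 4). With array 1 of each animal alone, this probe differed by −0.40 log2 and was not called (adjusted p = 0.142). Phosphoglucomutase links glucose 1-phosphate, the product of phosphorylase, to glycolysis. The RefSeq table lists Pgm1 and Pgm2 each as an older name of the other, so which of these genes the probe measures is uncertain. The probe with the symbol PGM1 was dim, at 338 ± 27.0 and 310 ± 38.9 (SD, n = 4), and did not pass.

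Another targeting subunit of the phosphatase, Ppp1r3b, gave opposite signs at its probes: −0.26 log2 at the brighter (adjusted p = 0.0445) and 0.25 log2 at the dimmer (adjusted p = 0.184). Dropping single animals ended the call at the brighter probe in 7 of 8 cases, the exception being control animal 1, with adjusted p from 0.0549 to 0.124. Ppp1r3a, the muscle targeting subunit, read 20637 ± 2118 in control and 18612 ± 1086 in Hira CKO (SD, n = 4) and did not pass. Ppp1r3c, a targeting subunit of muscle and liver, ran from 13877 to 59451 across control animals, so that its difference of −0.01 log2 has a 95% interval from −0.87 to 0.85. Ugp2, which makes the UDP-glucose that glycogen synthase uses, differed by −0.13 log2 and did not pass. The kinases of glycogen synthase, Gsk3a and Gsk3b, differed by 0.22 and 0.26 log2 at dim probes and did not pass.

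For glycogen breakdown and glycogen quality, 5 of 8 genes were measured by 7 probes, and 0 were called by limma (0 at an unadjusted p under 0.05). Gaa, the acid glucosidase of lysosomes, differed by −0.17 and −0.02 log2 at its probes. Epm2a (laforin, a glycogen phosphatase) differed by −0.20 log2, and Nhlrc1 (malin, its partner ubiquitin ligase) by 0.002 and −0.20. Stbd1, which ties glycogen to membranes, had the largest difference, 0.57 log2, with an SE of 0.261 and an adjusted p of 0.149. Its values overlapped, from 13922 to 28217 in control and from 19724 to 39104 in Hira CKO. Pygb and Pygl, the other phosphorylases, were not analysed here.

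For the kinases and calmodulin, 13 of 14 genes were measured by 13 probes, with 4 called higher and 2 lower. Of the 7 subunit genes of AMP-activated protein kinase, an energy sensor that phosphorylates glycogen synthase and binds glycogen through its beta subunits, 4 rose and 1 fell. The catalytic subunits Prkaa1 and Prkaa2 rose by 0.26 log2 (SE 0.0663, adjusted p = 0.0225) and 0.34 log2 (adjusted p = 0.0158). Their control means were 1158 and 372, the latter below the array medians. The subunits Prkab1 and Prkag2 rose by 0.46 log2 (adjusted p = 0.0159) and 0.34 log2 (adjusted p = 0.0109), from control means of 1641 and 905. All of these rises were at probes far dimmer than that of Prkab2. The beta subunit that prevails in muscle, Prkab2, fell by 0.37 log2 (adjusted p = 0.029), from 25530 ± 2963 to 19791 ± 1797 (SD, n = 4). Prkag1 and the muscle form Prkag3 differed by −0.17 and −0.11 log2 and did not pass. The calls of 3 of these subunits were lost when some animals were left out. Prkab2 lost its call without control animal 3 or 4 or Hira CKO animal 1, 3 or 4 (adjusted p 0.052 to 0.0808). Prkaa1 lost it without control animal 2 (adjusted p = 0.0599) or Hira CKO animal 1 (0.0588) or 2 (0.0512), and Prkaa2 without Hira CKO animal 2 (adjusted p = 0.0507). Using 1 array of each animal in place of the mean of 3 ended, for at least 1 of the 3 arrays, the calls of all 5 called subunits. Prkag2 was also not called with the animal as a random effect on all arrays.

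Protein kinase A, which phosphorylates phosphorylase kinase, had 0 of 4 measured subunits called by limma (0 at an unadjusted p under 0.05): Prkaca, Prkacb, Prkar1a and Prkar2a differed by 0.14, −0.04, 0.03 and −0.13 log2. Calm3, a gene of calmodulin and so of the delta subunit, fell by 0.61 log2 (SE 0.134, adjusted p = 0.0108), from 39263 ± 5286 in control to 25860 ± 4502 in Hira CKO (SD, n = 4). Every Hira CKO animal, at 21283 to 31998, read below every control animal, at 33049 to 44833. With array 3 of each animal alone, Calm3 differed by −0.39 log2 and was not called (adjusted p = 0.193). Calm2 encodes the same protein and differed by −0.23 log2 without passing (95% interval −0.58 to 0.12).

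**Figure D2:**
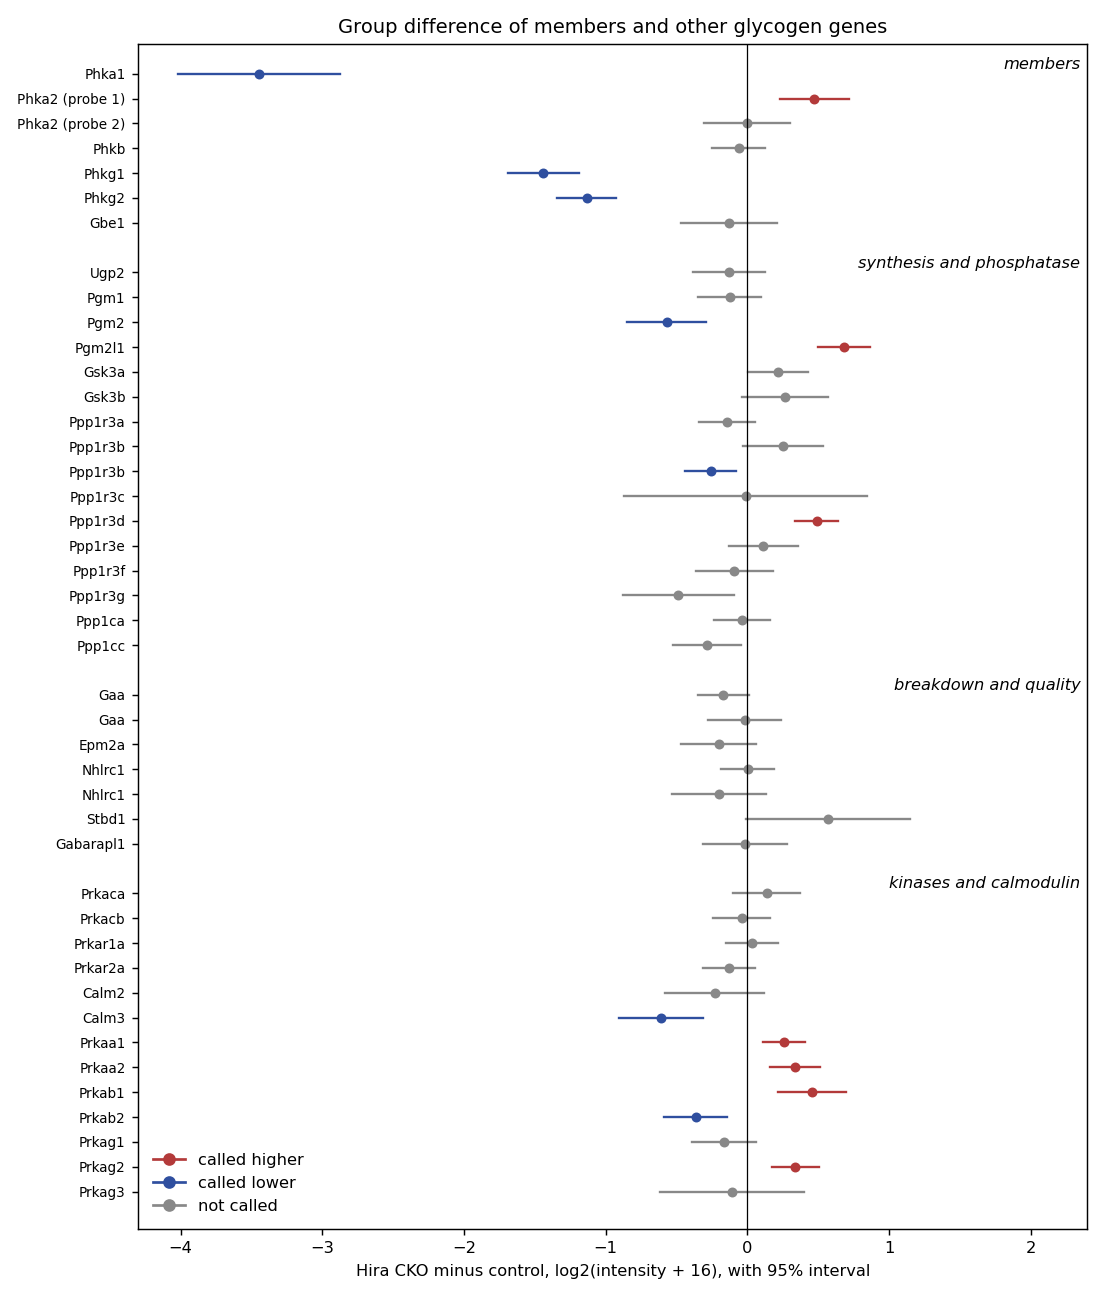
Difference Hira CKO minus control in log2(intensity + 16), with its 95% interval, for each member probe and each probe of the 3 other lists; blue was called lower, red called higher and grey not called. Phka1 at −3.45, Phkg1 at −1.44 and Phkg2 at −1.14 lie left of every probe of the other lists, whose lowest value is Calm3 at −0.61. The members were chosen with this comparison known, so nothing is read from that order.

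All measured neighbours of Phka1, Phkg1 and Phkg2 on their chromosomes differed by less between the groups than those genes did. Those genes had the largest differences of a set chosen on this comparison, so nothing is read from that order. The 5 protein-coding genes on each side of each of the 9 named genes gave 77 measured genes and 87 probes, of which 11 were called higher and 8 lower, 21.8% against 20.6% of all probes. Around Phka1, on chromosome X, 4 genes were measured. Hdac8, its neighbour on one side, differed by −0.13 log2 and Cited1 by −0.06, neither called, Ercc6l by −0.32 (adjusted p = 0.0896), and Dmrtc1b was called at −0.36 log2 but read only 33.1 and 22.5. Around Phkg1, on chromosome 5, 1 of 11 probes was called (Vkorc1l1, −0.24 log2, adjusted p = 0.0378), and the adjacent Sumf2 and Chchd2 differed by −0.16 and −0.04 without passing. These few neighbours, Dmrtc1b, Vkorc1l1 and the uncalled ones, are named after their values were seen.

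Around Phkg2, on chromosome 7, 2 of 12 probes were called, both lower. Bcl7c, a chromatin remodelling subunit, fell by 0.49 log2 (adjusted p = 0.0149), and the adjacent Ccdc189, named after its values were seen, by 0.37 log2 at a dim probe (adjusted p = 0.00765). Around Phkb, whose own groups overlapped, 5 of 10 probes were called, 3 higher and 2 lower. Among them Gpt2, an alanine aminotransferase, fell by 0.71 log2 (adjusted p = 0.00336). Dnaja2, a chaperone, rose by 0.44 (adjusted p = 0.0126) at 1 probe and differed by 0.11 without passing at the other. The largest differences among neighbours were beside Pygm, which itself was not measured: Ehd1, a protein of membrane traffic, fell by 1.66 log2 (adjusted p = 9.88e-05), and Cdc42bpg, a kinase, rose by 1.18 (adjusted p = 0.00028). Ehd1 read a mean of 366 in control and 103 in Hira CKO, both below the array medians. Beside Gyg, Naaladl2 rose by 0.64 and 0.40 log2 at its probes (adjusted p = 0.00492 and 0.0221), from control means of 267 and 150, also below the array medians.

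**Figure D3:**
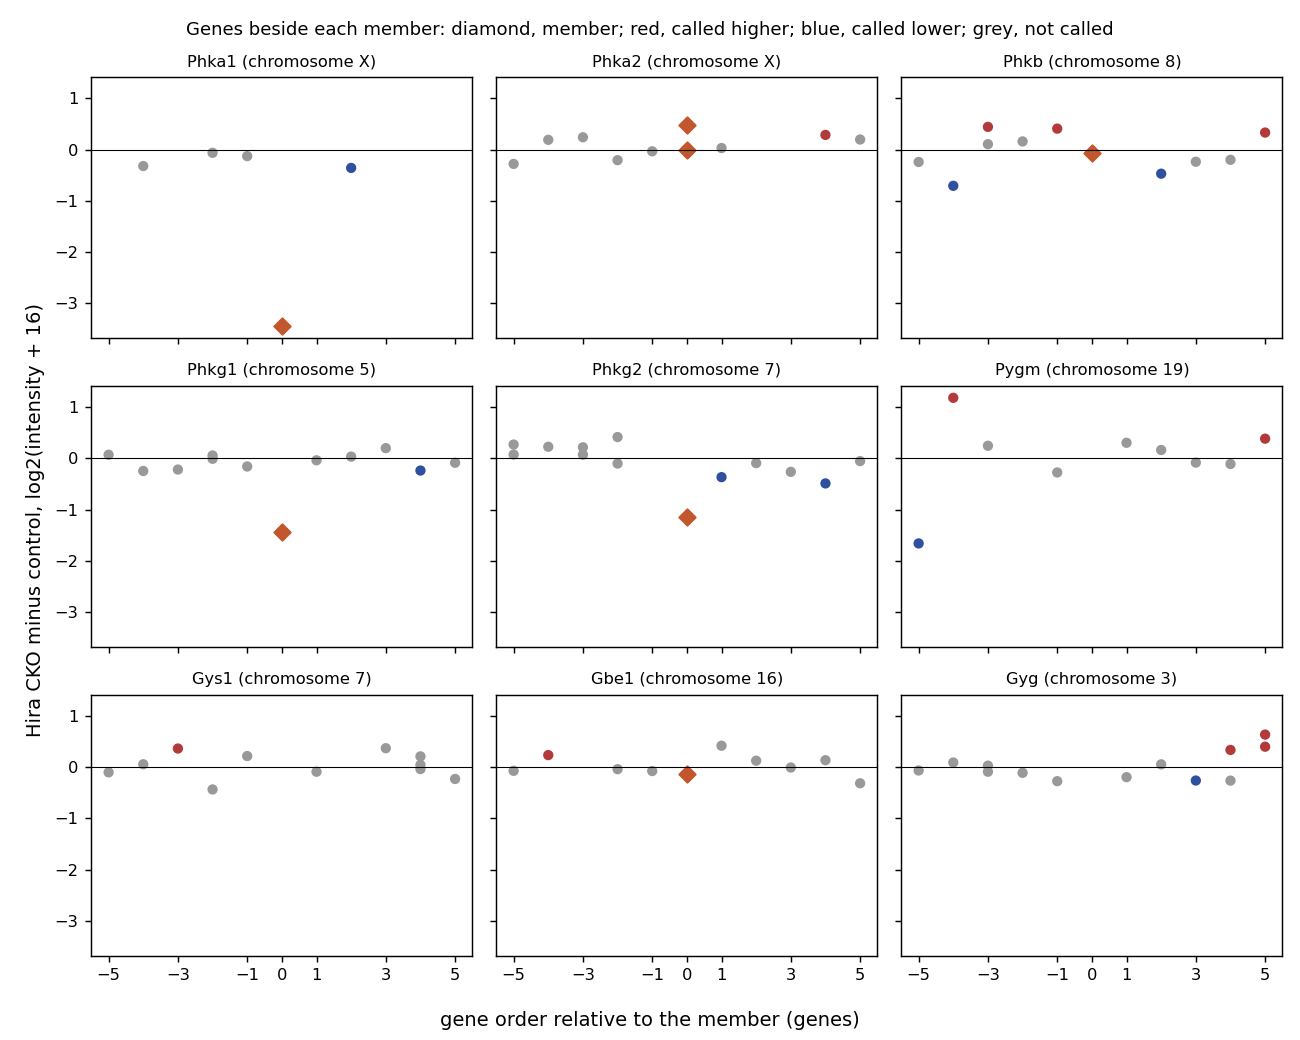
Difference Hira CKO minus control in log2(intensity + 16) against gene order for the 5 protein-coding genes on each side of each named gene; the diamond is the named gene where it was measured, and red, blue and grey are called higher, called lower and not called. The diamonds of Phka1, Phkg1 and Phkg2 lie below all of their measured neighbours, the upper Phka2 diamond, the dimmer probe, lies above its neighbours, and those of the brighter Phka2 probe, Phkb and Gbe1 lie among theirs. The named genes were chosen with this comparison known, so nothing is read from the place of their diamonds.

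The probes whose values ran most like Phka1 over the 8 animal means were those of Spin1, Otulin, Phf10, Fam53c and Tdrd3, with Pearson correlations of 0.997 to 0.998. Their group differences ran from −2.19 to −0.97 log2, and 481 named probes had a correlation above 0.95, which the difference between the groups largely fixes. Spin1 had another probe, at −0.32 log2. Phkg1 and Phkg2 correlated with Phka1 at 0.967 and 0.966 over the same 8 means.

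Once each animal was taken as its deviation from the mean of its own group, the most alike were Spin1 (0.985), Ckmt2 (0.982), Gm20594 (0.982), Klhl32 (0.979) and Pink1 (0.976). These were the top of 23 named probes with a correlation above 0.95. Spin1 differed between the groups by −0.97 log2, and the other 4 by −0.16 to 0.18. On this scale Phkg1 and Phkg2 correlated with Phka1 at 0.285 and 0.237. The dim Phka2 probe correlated at 0.917, although its group difference had the other sign. These correlations describe 8 animals with shared group means and carry no test.

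The Phka1 probe also stands in a run of probe numbers with many falls, most of them at numbers above its own. Of the 1000 probes numbered within 500 of it, 167 (16.7%) were called lower, against 10% of all probes, and 90 (9%) were called higher. Among the 100 largest falls of the table, 19 other probes came from this run. The next number, Baz1b, differed by −1.70 log2, from 1355 ± 100 to 411 ± 75.4 (SD, n = 4), and the number before, Etv6, by 0.18 log2. The windows of 1000 probes around the dimmer Phka2 probe and the Gbe1 probe held 0 and 4 of the 100 largest falls. The window around Phkg2 held 998 probes, of which 10.4% were called lower and 7 were among the 100 largest falls. That around Phkg1, whose probe belongs to another number series, held only 328 probes, of which 10.1% were called lower and 2 were among those falls, so these counts of falls are not over equal numbers of probes. The labels do not say what probe numbers stand for on this platform. The part of the run in the value of Phka1 was not tested.

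**Figure D4:**
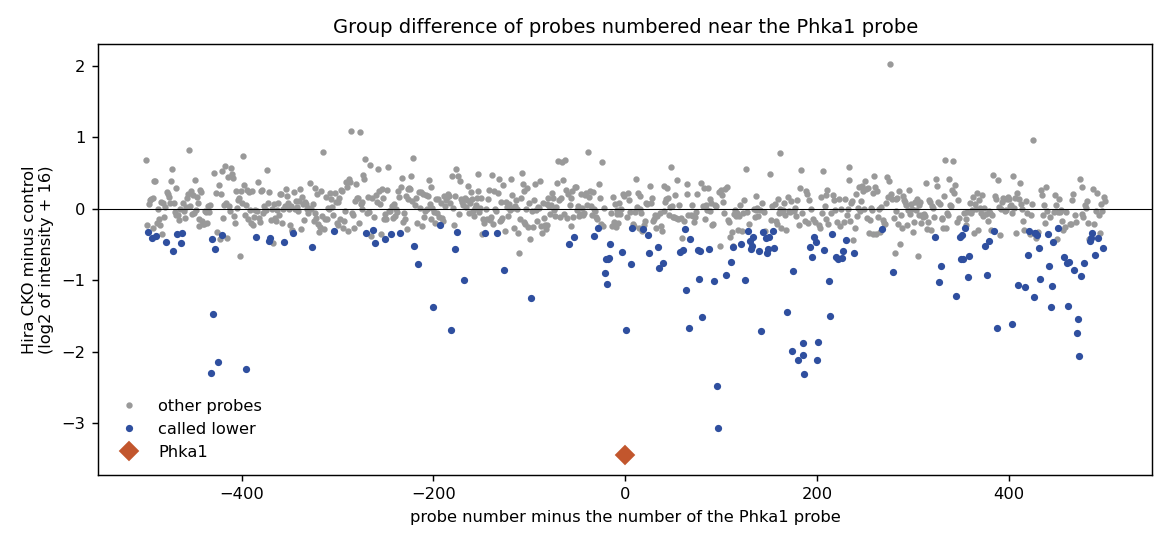
Difference Hira CKO minus control in log2(intensity + 16) for the 1000 probes numbered within 500 of the Phka1 probe, against their number relative to it; blue was called lower, grey was not, and the orange diamond is Phka1. Phka1, at −3.45, is the lowest point, and 167 blue points lie below 0, more of them to the right of Phka1 than to the left.

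Markers of cell types were set beside these differences. Of the fibre markers, 2 of 5 were called lower, Acta1 by 0.55 log2 and Ckm by 0.28, with summed intensities of 1087649 to 1261673 in control and 971959 to 1084513 in Hira CKO. Of 5 markers of fast glycolytic fibres, in which phosphorylase kinase is abundant, 2 were measured and 0 were called by limma (0 at an unadjusted p under 0.05): Pvalb differed by −0.05 log2 and Actn3 by −0.06. Of 5 slow fibre markers 3 were measured and 0 were called by limma (0 unadjusted), with sums of 8317 to 11434 in control and 7902 to 16098 in Hira CKO. Measured at the brightest probe of each gene, 3 of 5 endothelial markers were called lower (Pecam1, Kdr and Emcn), with sums of 17187 to 19388 in control and 14094 to 15819 in Hira CKO. Cdh5 and Tek differed by −0.18 and 0.11 log2 and were not called. The dimmer Pecam1 probes, at −0.21 and −0.22 log2, were not called either. Of the measured markers of macrophages, adipocytes, fibroblasts, Schwann cells and erythroid cells 0 were called by limma (1 of macrophages, Adgre1, and 1 of fibroblasts, Col1a1, at an unadjusted p under 0.05), and the ranges of their sums overlapped between the groups. No measured marker of these lists read 0. The part of these cells in the differences of the members was not tested.

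Phka1 and Phka2 lie on the X chromosome, and the sex of the animals is not in the labels. Xist, the RNA of the inactive X, read 194 to 254 in control and 169 to 210 in Hira CKO, ranges that overlap. Of 4 Y-linked genes only Kdm5d was measured, and it read 701 to 824 in control and 308 to 540 in Hira CKO (−0.75 log2, limma adjusted p = 0.00963). Kdm5d thus moved with the group, and its part in the Phka1 difference was not tested.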

How the data were processed

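Total RNA of 8 animals was measured on 24 1-colour arrays with Cy5 label, 5 micrograms each, per the labels. The deposited table holds a linear intensity for each probe and array, already normalized by the authors: the maximum is the same on every array, and 50 values are at or below 0. Scanner, background method and software are not given in the sources used here. Slides and scan dates are not in the labels or headers, and a batch effect cannot be told apart from the group.

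Probes were named from the platform annotation (20377 with 1 symbol, 0 with several, 6046 unnamed), updated through the RefSeq table of GRCm38.p6, used for names and gene order. Values below 0 were set to 0, 16 was added and log2 taken, which understates changes of dim probes. The mean over 3 arrays stood for each animal. The 4 animals of each group entered limma 3.58.1 (R 4.3.3), and p-values were adjusted by Benjamini-Hochberg across the 26423 probes, with calls at 0.05 or below. The fit was tested on simulated data. No filter on low values was used, so all 7 member probes were kept.

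Members and lists were chosen with earlier results of these data known. Named were all member probes, up to 6 rises and 6 falls of the glycogen lists, up to 3 of each among neighbours, the 5 symbols most like Phka1, Hira and the fibre markers.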

Additional observations from a re-analysis of the deposited data

Results flagged for a closer look

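Each member probe was searched in each group of 4 animals for an animal apart from the others, by its gap to the nearest animal as a share of the range of the group in log2, against Dixon's critical value for 4 samples. Of 14 such groups 2 held one, and chance gives about 1 in 20. At the brighter Phka2 probe, Hira CKO animal 3 read 1237 against 980 to 986 in the other 3, a share of 0.958. At the Phkg2 probe, Hira CKO animal 4 read 1038 against 1273 to 1301, a share of 0.88. Leaving these animals out gave −0.08 log2 for that Phka2 probe and −1.06 for Phkg2.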

How the results depend on the processing

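Over 26 alternatives the member differences, which chose the set and so support nothing, ranged over −3.70 to −3.29 log2 for Phka1, −1.53 to −1.31 for Phkg1 and −1.27 to −1.03 for Phkg2. The higher call, the dimmer Phka2 probe, went to 0 with the median of the arrays, with array 1, 2 or 3 of each animal alone, at an adjusted p of 0.01 and with a fold of at least 1.5. With array 1, 2 or 3 alone, all probes gave 1522, 1269 and 1577 higher and 1669, 1579 and 1547 lower calls against 2783 and 2649. The neighbours gave 4, 4 and 6 higher against 11, and 3 lower with array 1 or 2 against 8. The other glycogen genes gave 2 higher with array 2 against 6, and 1 and 2 lower with arrays 1 and 3 against 4. At a threshold of 0.01 the higher and lower calls were 1113 and 1296 for all probes, 2 and 0 for the other glycogen genes and 3 and 4 for the neighbours. With a fold of at least 1.5 they were 715 and 933, 1 and 1, and 2 and 2. At 0.10 the neighbours gave 17 and 14. Neighbour falls were 16 with the animal as a random effect on all arrays and 13 with animal weights. Leaving out 1 animal gave 1841 to 2634 higher and 1817 to 2499 lower calls for all probes, 4 to 7 and 2 to 5 for the other glycogen genes, and 6 to 11 and 6 to 9 for the neighbours. The lowest counts came without Hira CKO animal 1 (all probes, higher) and without control animal 3 or 4 or Hira CKO animal 1 or 3 (2 falls of glycogen genes). Neighbour rises were 6 to 7 without control animal 2 or 3 or Hira CKO animal 1 or 2. Where a count moved, the cause was not tested.

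Animal numbers are shared by the groups, and the labels do not say whether they pair the animals. Deviations of same-numbered animals correlated at 0.296, 0.093, −0.0643 and 0.0673. These few correlations cannot show whether the animals are paired. With the animal number as a replicate block, 2505 probes were called higher and 2420 lower, the member counts were 1 and 3, and Prkaa1 and Ppp1r3b were no longer called (adjusted p = 0.053 and 0.051). The highest correlation was with the same number for animal 1 alone among the control animals. Signal over background is not in the table, so what dim probes can show is not known.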
